A study of Mus musculus with 48 samples.

Results

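The 10 genes that mark astrocytes here, *Gfap*, *Aqp4*, *Aldh1l1*, *Slc1a2*, *Slc1a3*, *Gja1*, *Gjb6*, *S100b*, *Glul* and *Aldoc*, were followed through a series of mouse amygdala transcriptomes. They were chosen by symbol as genes known to mark astrocytes, with earlier results of these data known, by a rule that sets no threshold on their levels. Each symbol was mapped to a single Ensembl gene identifier, so that all 10 were found among the 52636 gene identifiers in the table. RNA was sequenced from punches of the right amygdala of female mice aged 8 to 11 weeks, either wild-type (WT) or heterozygous for a targeted deletion within *Brd1* (*Brd1*+/-), from the line C57BL/6NTac-Brd1tm1.2Arte/AborgMmucd and matched by litter. The sample labels and the study's methods give the tissue as amygdala, whereas the design text of the series names striatum, caudate putamen and anterior cingulate cortex, and the labels were followed. *Brd1* encodes a chromatin reader protein that is part of histone acetyltransferase complexes. Mice of each genotype received vehicle (saline), the tricyclic antidepressant imipramine (IMN, 10 mg/kg) or the serotonin reuptake inhibitor fluoxetine (FLX, 5 mg/kg), which gave 6 groups of 8 libraries and 48 libraries in all. All of these mice went through behavioural testing shortly before they were killed, so the vehicle groups are injected and tested mice rather than untouched ones. The *Brd1*+/- mice still carry an intact allele, and a bulk punch holds every cell type of the tissue under the needle.

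Astrocytes take up the glutamate released at synapses, convert it to glutamine and hand it back to neurons. They are coupled to each other by gap junctions, wrap blood vessels with endfeet rich in water and potassium channels, and raise their intermediate filaments when they react to injury. In the adult forebrain the density of astrocytes and their content of marker transcripts differ between grey matter, white matter and the border along vessels and ventricles.

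Levels are given in TPM, a count of transcripts corrected for their length and scaled to the same sum in each library. *Brd1* itself averaged 35.1 ± 4.37 TPM (SD, n = 24) in the WT libraries and 24.3 ± 3.85 TPM (n = 24) in the *Brd1*+/- libraries. Its ranges overlapped, from 24.9 to 41.0 TPM and from 16.6 to 30.6 TPM. The punches also differed in the other cells they held. The summed level of 8 markers of striatal projection neurons ran from 130.6 to 8115 TPM with a median of 405 TPM, and it reached 2000 TPM in 12 of the 48 libraries, none of which was WT FLX. The 8 oligodendrocyte markers summed to between 676 and 17111 TPM and 7 choroid plexus markers to between 8.6 and 29616 TPM, the latter reaching 1000 TPM in 9 libraries. The 6 markers of amygdala neurons summed to between 46.9 and 603 TPM. Because the vehicle mice and the drug-treated mice carry animal codes in separate ranges, a drug and any handling that followed the codes cannot be told apart. In such bulk samples, fewer cells of a type and less RNA per cell cannot be told apart either.

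The sequence just before the first transcribed base is shown for 4 markers: *Glul* and *Gjb6*, which passed the test with FLX in WT mice, *Gfap*, which varied most between libraries, and *Slc1a2*, which moved against the others. Each is the 250 bases upstream of the RefSeq start on the gene's own strand (GRCm38.p6), in lower case with a GC box in capitals where there was one. They are *Glul* at chr1:153899679-153899928 on the plus strand, *Gjb6* at chr14:57133612-57133861 on the minus strand, *Gfap* at chr11:102897201-102897450 on the minus strand and *Slc1a2* at chr2:102706188-102706437 on the plus strand. The windows of *Gfap* and *Slc1a2* lie inside the span that GENCODE gives those genes, since GENCODE also lists longer transcripts.
Glul: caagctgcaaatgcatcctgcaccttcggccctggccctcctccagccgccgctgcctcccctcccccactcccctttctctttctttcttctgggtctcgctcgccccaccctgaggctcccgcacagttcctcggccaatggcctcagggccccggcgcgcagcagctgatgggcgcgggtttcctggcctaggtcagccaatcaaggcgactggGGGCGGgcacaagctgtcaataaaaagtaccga
Gjb6: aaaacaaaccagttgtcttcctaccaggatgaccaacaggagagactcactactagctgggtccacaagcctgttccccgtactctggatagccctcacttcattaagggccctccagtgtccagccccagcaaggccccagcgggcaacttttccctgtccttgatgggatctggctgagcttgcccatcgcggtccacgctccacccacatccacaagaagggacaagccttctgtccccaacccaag
Gfap: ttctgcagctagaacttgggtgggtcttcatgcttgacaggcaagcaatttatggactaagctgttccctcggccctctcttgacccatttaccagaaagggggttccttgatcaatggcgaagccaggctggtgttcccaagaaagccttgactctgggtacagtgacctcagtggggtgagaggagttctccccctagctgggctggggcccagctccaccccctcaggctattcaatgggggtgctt
Slc1a2: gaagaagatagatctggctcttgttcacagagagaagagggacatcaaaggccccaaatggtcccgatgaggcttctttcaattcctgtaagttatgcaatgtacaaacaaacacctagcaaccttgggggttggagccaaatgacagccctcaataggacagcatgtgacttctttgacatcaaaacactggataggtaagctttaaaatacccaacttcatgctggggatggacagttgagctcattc
RefSeq gave a start for 9 of the 10 markers, and *Aldoc* had a pair of starts, so 10 windows were searched on both strands for 5 short motifs. The GC box GGGCGG was found in 4 of them, with its first base at position −33 from the start in *Glul*, −45 in *Aldh1l1*, −17 in *Aldoc* and −145 in *Slc1a3*, against 32.9% of 27025 promoter windows of the same length. TATAAA was found in 1 window (*Slc1a3*; 3504 of the 27025), the AP-1 site TGANTCA in 1 (*Gja1*, 6.87%) and the STAT palindrome TTCNNNGAA in 2 (*Aldoc* and *Slc1a3*, 7.18%). The full nuclear factor I palindrome, present in 0.0407% of windows, was in none of the 10. The *Gfap*, *Gjb6* and *Slc1a2* windows held none of the 5 motifs, and no motif was shared by all of the markers.

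All 10 markers were expressed in every library, but at levels that spanned more than an order of magnitude. *Glul* (ENSMUSG00000026473), the glutamine synthetase gene on chromosome 1, was the highest at 894 ± 204 TPM (SD, n = 48) and exceeded the next gene in all 48 libraries. *Aldoc* (ENSMUSG00000017390, chromosome 11), a glycolytic aldolase of the brain, followed at 608 ± 129 TPM. The glutamate transporter genes came next, *Slc1a2* (ENSMUSG00000005089, chromosome 2) at 385 ± 77.2 TPM and *Slc1a3* (ENSMUSG00000005360, chromosome 15) at 280 ± 43.1 TPM. *Aldoc* was above *Slc1a2* in 42 libraries, *Slc1a2* above *Slc1a3* in 40, and *Slc1a3* above *S100b* in 44.

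In the middle of the order the genes could not be separated. *S100b* (ENSMUSG00000033208, chromosome 10), a calcium-binding protein gene that oligodendrocytes also express, averaged 187 ± 77.8 TPM and was above *Gfap* in 35 of 48 libraries. *Gfap* (ENSMUSG00000020932, chromosome 11), which encodes the glial intermediate filament, averaged 168 ± 159 TPM, with an SD nearly as large as its mean. *Gja1* (ENSMUSG00000050953, chromosome 10), the connexin 43 gene, averaged 167 ± 44.4 TPM. *Gfap* and *Gja1* thus had nearly equal means, yet *Gfap* was the higher of the pair in only 15 libraries. *Gja1* was above *Gjb6* (ENSMUSG00000040055, chromosome 14), the connexin 30 gene, in all 48 libraries. *Gjb6* averaged 87.8 ± 30.1 TPM, *Aqp4* (ENSMUSG00000024411, chromosome 18), the endfoot water channel gene, 61.8 ± 35.7 TPM, and *Aldh1l1* (ENSMUSG00000030088, chromosome 6), a folate enzyme used to mark astrocytes broadly, 39.8 ± 7.61 TPM. All 10 are annotated as protein-coding genes.

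**Figure D1:**
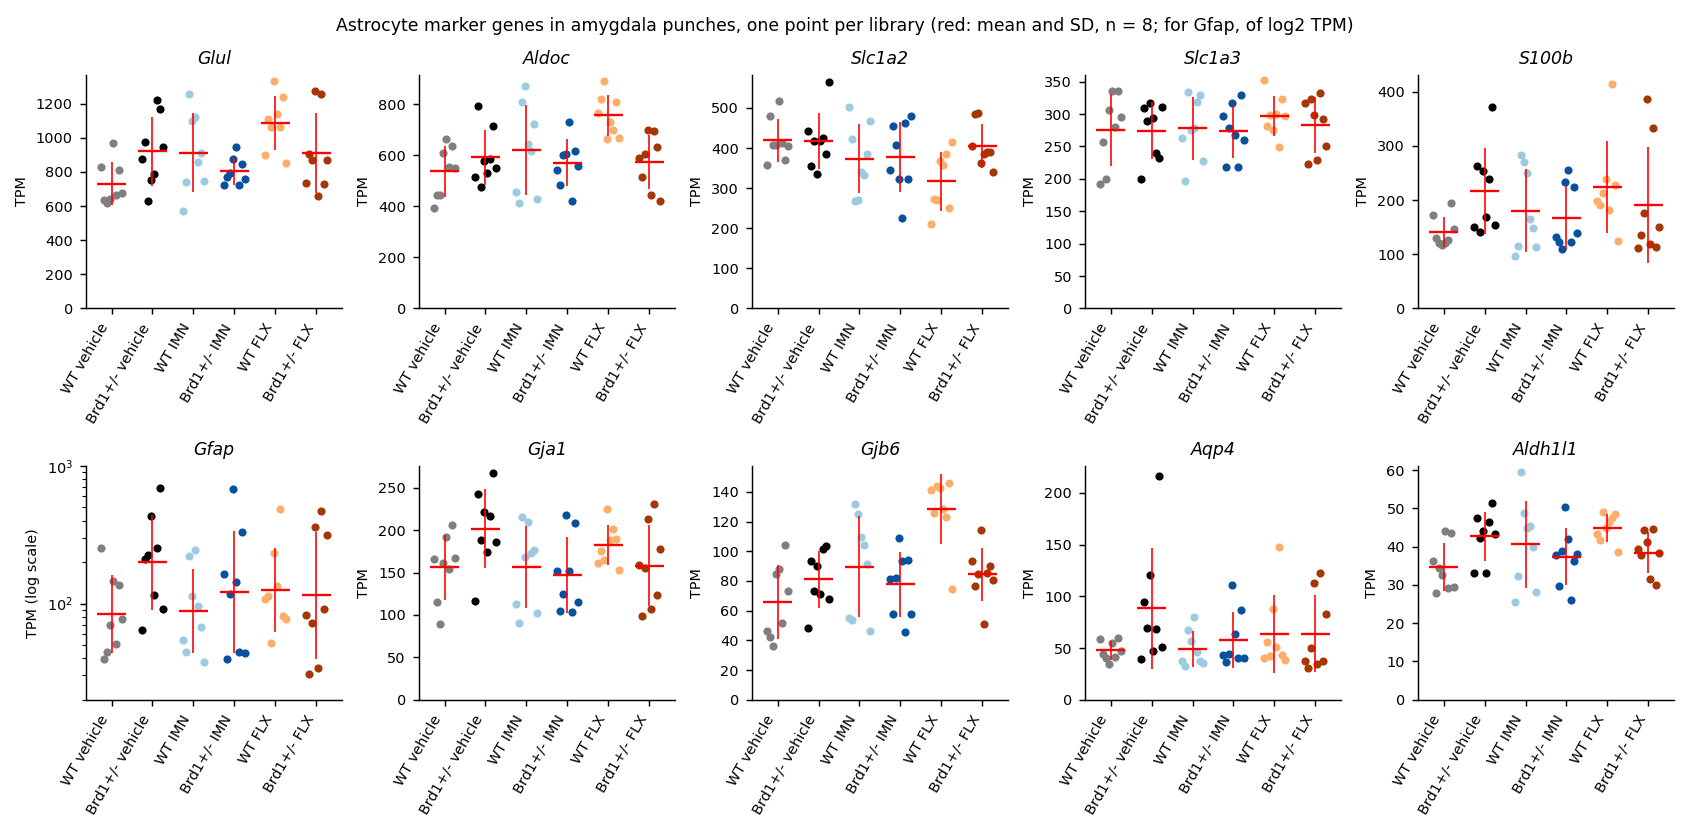
Level of each astrocyte marker in TPM (vertical axis, logarithmic for *Gfap*) in the 6 groups (horizontal axis), with 1 point per library and the mean and SD of 8 libraries in red, those of *Gfap* being of log2 TPM. *Gfap* ranged from 30.9 to 685 TPM, and the 8 WT FLX points of *Aldoc* all lie above the 8 WT vehicle points.

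The markers differed strongly in how much they varied between libraries. *Gfap* was lowest, at 30.9 TPM, in *Brd1*+/- FLX replicate 2 and highest, at 685 TPM, in *Brd1*+/- vehicle replicate 7, a 22.1-fold range. Its SD within groups was 1.21 on the log2 scale, at percentile 96.3 of 11581 protein-coding genes averaging at least 5 TPM, whose median SD was 0.31. *Aqp4* spanned a 6.96-fold range (SD 0.63, percentile 84.4), *S100b* a 4.27-fold range (SD 0.53) and *Gjb6* a 4.05-fold range (SD 0.45). *Gja1* had an SD of 0.39. The SDs of *Slc1a2*, *Glul*, *Aldoc*, *Aldh1l1* and *Slc1a3* were between 0.24 and 0.29, below the median of the compared genes. *Slc1a3* was the steadiest marker, with a 1.83-fold range between its lowest and highest library.

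Among the genes of glutamate handling, *Glul* had its lowest median in WT vehicle mice. Its lowest, median and highest values were 619, 669 and 971 TPM in WT vehicle, 568, 883 and 1255 TPM in WT IMN, and 852, 1086 and 1333 TPM in WT FLX. In *Brd1*+/- mice they were 632, 910 and 1224 TPM with vehicle, 721, 782 and 945 TPM with IMN, and 657, 868 and 1272 TPM with FLX. In WT FLX 6 of the 8 libraries were above every WT vehicle library, whereas the *Brd1*+/- groups overlapped each other widely. *Slc1a2*, which encodes the main glutamate transporter of forebrain astrocytes, ran the other way. It measured 358, 407.4 and 518 TPM (lowest, median, highest) in WT vehicle, 268, 363 and 501 TPM in WT IMN and 210.4, 316 and 416 TPM in WT FLX. The corresponding values were 336, 417 and 565 TPM in *Brd1*+/- vehicle, 227, 377.5 and 479 TPM in *Brd1*+/- IMN, and 339, 389 and 488 TPM in *Brd1*+/- FLX. Again 5 of the 8 WT FLX libraries were below every WT vehicle library. The other transporter gene, *Slc1a3*, differed little, with group means between 273 and 297 TPM.

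*Gjb6* was the gap junction gene with the wider differences. Its lowest, median and highest levels were 36.1, 62.5 and 104 TPM in WT vehicle, 46.2, 97.8 and 131.8 TPM in WT IMN, and 74.8, 134.6 and 146 TPM in WT FLX. In *Brd1*+/- mice they were 48.6, 81.6 and 103 TPM with vehicle, 45.4, 81.9 and 109 TPM with IMN, and 51.2, 85.0 and 114 TPM with FLX. In 7 of 8 WT FLX libraries *Gjb6* exceeded all WT vehicle libraries, while the 3 *Brd1*+/- groups covered almost the same range. *Gja1* had its highest mean in *Brd1*+/- vehicle, 202 ± 46.4 TPM (SD, n = 8), and its lowest in *Brd1*+/- IMN, 147 ± 44.7 TPM.

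*Gfap* and *Aqp4* shared the same broad scatter. *Gfap* measured 39.8, 73.4 and 254 TPM (lowest, median, highest) in WT vehicle and 64.3, 218 and 685 TPM in *Brd1*+/- vehicle. It measured 37.9, 81.8 and 246 TPM in WT IMN, 39.8, 130.2 and 675 TPM in *Brd1*+/- IMN, 51.8, 110.2 and 483 TPM in WT FLX and 30.9, 87.1 and 466.1 TPM in *Brd1*+/- FLX. Every pair of groups overlapped, and in each group the highest library lay far above the median. *Aqp4* measured 34.7, 46.0 and 59.7 TPM in WT vehicle, the narrowest group, against 39.0, 68.9 and 217 TPM in *Brd1*+/- vehicle, where 5 of 8 libraries were above all WT vehicle libraries. Its medians in the 4 drug-treated groups lay between 41.9 and 47.5 TPM, with single libraries up to 148 TPM.

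*Aldoc* was the only marker whose groups separated completely in a comparison. Its lowest, median and highest levels were 393.3, 551 and 662 TPM in WT vehicle and 664, 748 and 891 TPM in WT FLX, so that all 8 WT FLX libraries were above all 8 WT vehicle libraries. Of the genes tested in that comparison, 0.153% showed such a separation. In WT IMN the levels of *Aldoc* were 412, 630 and 871 TPM, and the *Brd1*+/- group means were 592 ± 107 TPM with vehicle, 570.0 ± 92.4 TPM with IMN and 574 ± 106 TPM with FLX (SD, n = 8 each). *Aldh1l1* averaged between 34.7 TPM in WT vehicle and 45.0 TPM in WT FLX. *S100b* averaged between 141 TPM in WT vehicle and 223 TPM in WT FLX.

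The first question the design poses is whether either drug moved the astrocyte markers in WT mice. Directions in the comparisons are those of the mean log2 levels. With FLX, *Glul* rose by 0.58 ± 0.11 (SE) on the log2(TPM + 0.1) scale, with an adjusted *p* of 0.0399 (limma). Its mean was 731 TPM with vehicle and 1087 ± 159 TPM with FLX (SD of 8 libraries). *Gjb6* rose by 1.03 ± 0.21, with a mean of 65.7 ± 25.04 TPM with vehicle and 128 ± 23.4 TPM with FLX (limma, adjusted *p* = 0.0498). These 2 of 10 markers were called, against 0.335% of the 23557 genes tested. *Aldoc* missed the threshold with a log2 difference of 0.51 ± 0.11 (limma, adjusted *p* = 0.0566), as did *Aldh1l1* at 0.39 ± 0.10 (limma, adjusted *p* = 0.0897) and *S100b* at 0.61 ± 0.18 (limma, adjusted *p* = 0.119). *Slc1a2* was the only marker with a lower mean with FLX, by a log2 difference of −0.43 ± 0.13 that was not called (limma, adjusted *p* = 0.125). *Slc1a3*, *Gfap*, *Aqp4* and *Gja1* had differences between 0.13 and 0.57, with limma adjusted *p* between 0.403 and 0.621. In all, 6 of 10 markers had an unadjusted *p* under 0.05, against 16.8% of all genes, and their median difference was 0.45 against 0.05 for all genes.

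The calls of *Glul* and *Gjb6* lay close to the threshold, and each was lost under several other settings that are given in the closing section. Of the 16 fits that left out a library, *Glul* was called in 5 and *Gjb6* in 3, with adjusted *p* (limma) from 0.0167 to 0.107 and from 0.0165 to 0.121. The other cells in the punches moved as well. The striatal sum averaged 1720 TPM in WT vehicle and 586 TPM in WT FLX, and the oligodendrocyte sum 3193 and 5564 TPM. *Agt*, which is expressed by astrocytes outside the telencephalon far more than by those inside it, averaged 56.5 and 182 TPM, and the pair *Lhx2* and *Mfge8*, which mark telencephalic astrocytes, summed to 199 and 149 TPM. The part of these cells in the result was not tested, beyond leaving libraries out. Of the 12 striatum-rich libraries, 2 were WT vehicle and 0 were WT FLX, so leaving them out took libraries from the vehicle group only. The differences were then 0.57 for *Glul*, 0.83 for *Gjb6* and 0.40 for *Aldoc*, and all 3 were called (limma, adjusted *p* = 0.0220, 0.0319 and 0.0318). Calls rose across the whole table in that fit, to 5.48% of all genes from 0.335% with all libraries. Of the 9 choroid-rich libraries, 1 was WT vehicle and 1 WT FLX. Without them *Glul* was called at 0.60 (limma, adjusted *p* = 0.0420) and *Gjb6*, at 0.97, was not (adjusted *p* = 0.0583), where 1.25% of all genes were called.

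IMN in WT mice gave no call. None of the 10 markers and 0% of the 23644 genes tested passed the adjusted threshold, and no marker had an unadjusted *p* under 0.05 (limma), against 4.58% of all genes, that is 1084 genes. Of the markers 7 had a higher and 3 a lower mean with IMN, with differences from −0.19 to 0.44 and a median of 0.13. WT FLX set directly against WT IMN gave no call either, among the markers or among all 23501 genes (0%, with 1123 genes or 4.78% at an unadjusted *p* under 0.05 in limma). *Gjb6* was 0.59 ± 0.22 and *Aldoc* 0.33 ± 0.15 higher with FLX than with IMN on the log2 scale, each with an unadjusted *p* under 0.05 and an adjusted *p* (limma) of 0.858. *Glul* and *Gjb6* were thus called for FLX against vehicle, close to the threshold, but a difference between the drugs was not shown for any marker. Both drug comparisons use the same 8 WT vehicle libraries.

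**Figure D2:**
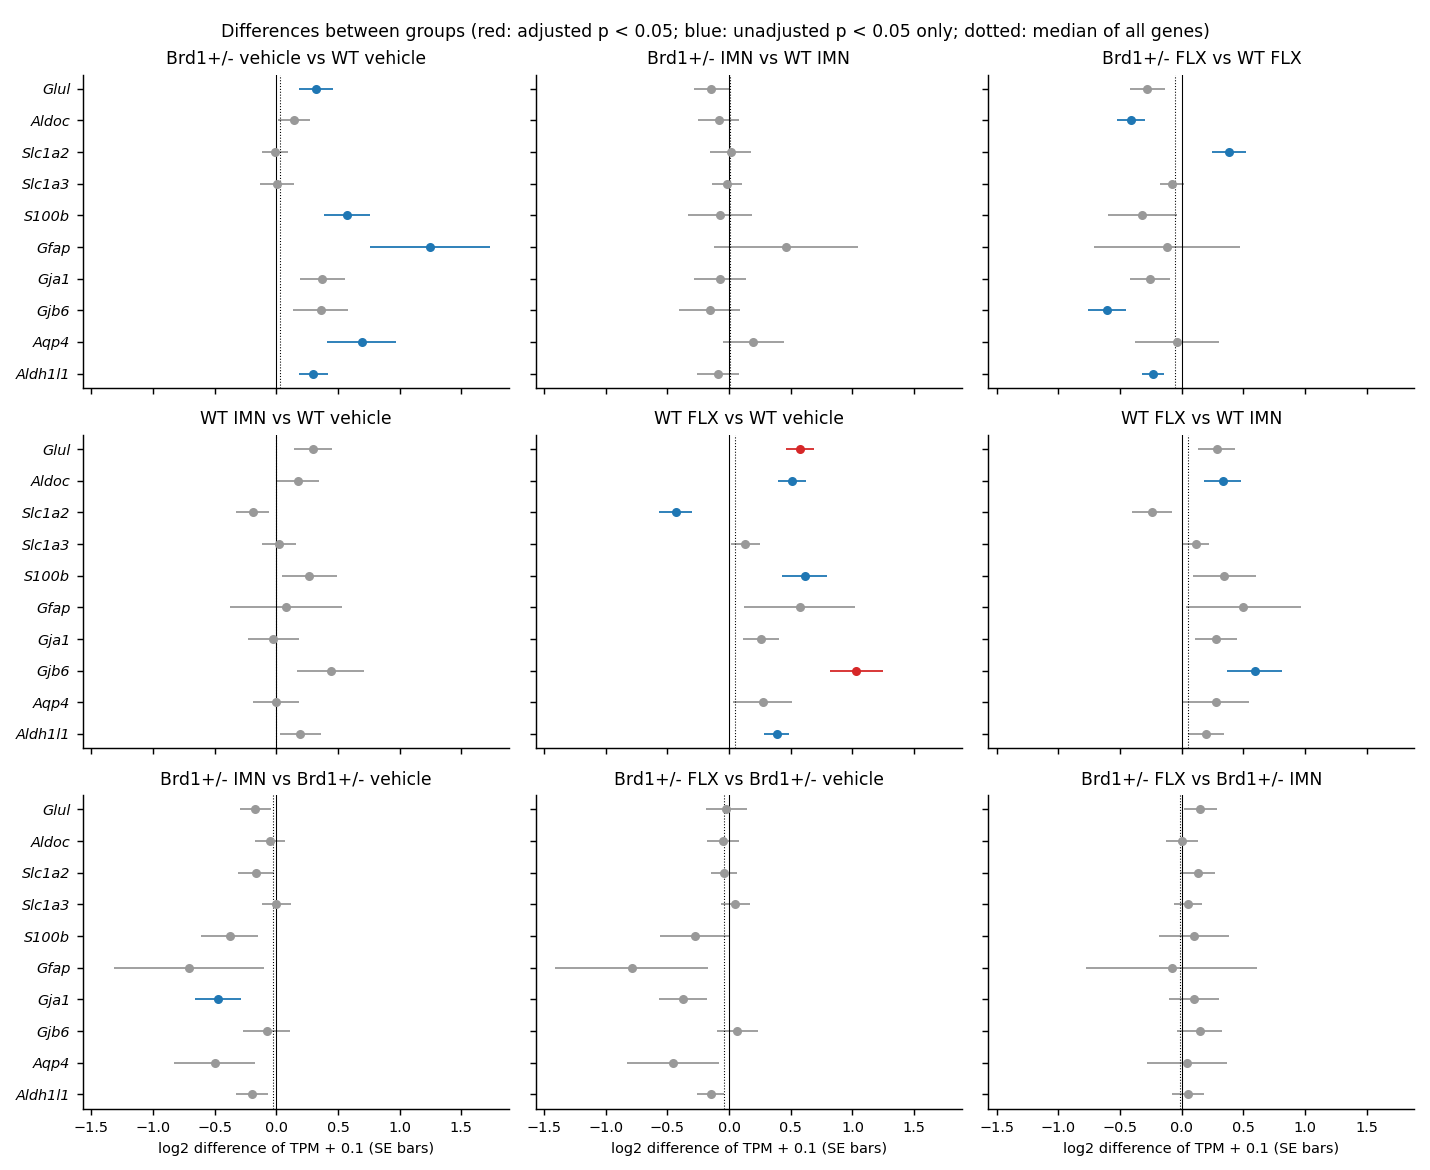
Log2 difference of each astrocyte marker (points, with SE) in the 9 comparisons between groups, with markers at an adjusted *p* under 0.05 in red, those at an unadjusted *p* under 0.05 only in blue, and the median of all genes as a dotted line. Red points appear in WT FLX vs WT vehicle alone, for *Glul* and *Gjb6*, and most markers lie above the dotted line in *Brd1*+/- vehicle vs WT vehicle and below it in *Brd1*+/- FLX vs WT FLX.

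The second question is whether the genotype alone was accompanied by a difference in the markers. With vehicle, 9 of 10 markers had a higher mean in *Brd1*+/- than in WT mice and 1 a lower, with a median difference of 0.34 against 0.03 for all genes, but none was called (limma, lowest adjusted *p* = 0.327). Of the 24279 genes tested 0.708% were called. *Gfap* showed the largest difference, 1.24 ± 0.48 on the log2 scale, with an adjusted *p* of 0.453 (limma), its level averaging 102 ± 73.3 TPM in the WT group and 260 ± 208 TPM in the *Brd1*+/- group (SD of 8 libraries). *Aqp4* differed by 0.69 ± 0.28 (adjusted *p* = 0.484, limma), from 47.8 ± 9.27 to 88.4 ± 58.3 TPM, and *S100b* by 0.57 ± 0.19 (adjusted *p* = 0.327, limma). *Glul* at 0.32 ± 0.14 and *Aldh1l1* at 0.30 ± 0.12 completed the 5 markers with an unadjusted *p* under 0.05, a threshold that 8.52% of all genes passed. For *Gfap* 3 of 8 *Brd1*+/- libraries were above all WT libraries, and 4 were for *S100b*. Leaving out a library at a time moved the *Gfap* difference between 0.99 and 1.48 and that of *Aqp4* between 0.47 and 0.83. The oligodendrocyte markers were also higher in the *Brd1*+/- vehicle libraries, summing to 7417 against 3193 TPM on average, with a median difference of 1.51 over the 8 genes. All 8 had an unadjusted *p* under 0.05 (limma) and 0 were called. Their part in these differences was not tested. Without the striatum-rich libraries the differences were 1.84 for *Gfap*, 1.05 for *Aqp4* and 0.72 for *S100b*, still uncalled (limma, adjusted *p* = 0.150, 0.179 and 0.188).

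With IMN the markers hardly differed between the genotypes. None of the 10 was called, none had an unadjusted *p* under 0.05 (limma), and the median difference was −0.08 against 0.01 for all genes, of which 0.017% were called and 3.58% had an unadjusted *p* under 0.05. With FLX the direction of the means was opposite to that with vehicle, 9 of 10 markers being lower and *Slc1a2* higher in *Brd1*+/- mice. *Gjb6* came nearest to the threshold, at −0.61 ± 0.15, with 84.5 ± 17.7 TPM in *Brd1*+/- FLX against 128 ± 23.4 TPM in WT FLX (n = 8 each; limma, adjusted *p* = 0.0573). *Aldoc* followed at −0.41 ± 0.11 (limma, adjusted *p* = 0.0731), *Slc1a2* at 0.38 ± 0.13 (adjusted *p* = 0.159) and *Aldh1l1* at −0.24 ± 0.09 (adjusted *p* = 0.192). None of the 10 was called, where 1.54% of 23635 genes were, and 4 of 10 had an unadjusted *p* under 0.05 where 16.6% of all genes did. For *Aldoc* 6 of 8 *Brd1*+/- FLX libraries were below all WT FLX libraries, but for *Gjb6* only 1. The striatal sum, 586 TPM in WT FLX, averaged 1671 TPM in *Brd1*+/- FLX, *Agt* 182 against 70.2 TPM, and the oligodendrocyte sum 5564 against 6158 TPM. The medians of the oligodendrocyte sum ran the other way, 5771 TPM in WT FLX and 2876 TPM in *Brd1*+/- FLX, and the median log2 difference of its 8 genes was −0.56. Their part in the result was not tested. Without the striatum-rich libraries *Gjb6* differed by −0.47 (limma, adjusted *p* = 0.129) and *Aldoc* by −0.33 (adjusted *p* = 0.187).

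In *Brd1*+/- mice neither drug gave a call among the markers. With IMN all 10 had a lower mean than with vehicle, with a median difference of −0.18, and *Gja1*, at −0.47 ± 0.19, was the only marker with an unadjusted *p* under 0.05 (limma, adjusted *p* = 0.411). In that comparison 0.776% of 24225 genes were called and 9.3% had an unadjusted *p* under 0.05. Genes of other cells were lower as well, with a median of −1.02 for the 8 oligodendrocyte genes, all 8 at an unadjusted *p* under 0.05 (limma), as were 5 of 9 microglial and 4 of 7 endothelial genes, and 0 called. Their part in the marker differences was not tested. With FLX 8 of 10 had a lower mean than with vehicle, none with an unadjusted *p* under 0.05 (limma), while 0.731% of 24336 genes were called and 6.94% had an unadjusted *p* under 0.05. FLX against IMN in *Brd1*+/- mice gave no call among the markers or among 23724 genes (0%, with 709 genes or 2.99% at an unadjusted *p* under 0.05 in limma), and the marker differences lay between −0.08 and 0.15.

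The dependence of each drug difference on genotype was tested as an interaction term over 32 libraries, which is the log2 drug difference in *Brd1*+/- mice minus that in WT mice. For FLX the term was negative for 9 of 10 markers and positive for *Slc1a2*, with a median of −0.61 where the median of all 26657 genes was −0.10. None of the 10 was called against 1.71% of all genes, and 7 had an unadjusted *p* under 0.05 (limma) against 16.8%. *Aldh1l1* at −0.54 ± 0.15 (limma, adjusted *p* = 0.0584) and *Gjb6* at −0.96 ± 0.28 (adjusted *p* = 0.0688) came nearest, followed by *Aldoc* at −0.56 ± 0.17 (adjusted *p* = 0.0893) and *Glul* at −0.60 ± 0.20 (adjusted *p* = 0.118). *Slc1a2* had a term of 0.39 ± 0.17 (adjusted *p* = 0.235, limma). Leaving out a library at a time brought *Aldh1l1* past the threshold in 7 of 32 fits and *Gjb6* in 4. The adjusted *p* (limma) then ran from 0.0267 to 0.108 and from 0.0265 to 0.121. Without the striatum-rich libraries their terms were −0.54 and −0.74 (limma, adjusted *p* = 0.139 and 0.155). Without the choroid-rich libraries they were −0.50 and −0.91 (limma, adjusted *p* = 0.173 and 0.195). The rise of *Glul* and *Gjb6* with FLX in WT mice and the absence of a call in *Brd1*+/- mice are therefore not shown to differ by genotype. For IMN the term was negative for 9 of 10 markers with a median of −0.46, none was called against 0.536% of 26673 genes, and *Glul*, at −0.46 ± 0.20, was the only marker with an unadjusted *p* under 0.05 (limma, adjusted *p* = 0.485), where 9.24% of all genes were. The 8 oligodendrocyte genes had a median IMN term of −1.95, all 8 at an unadjusted *p* under 0.05 (limma) and 0 called, and 6 of 9 microglial genes had a negative term at that threshold. Their part in the marker terms was not tested.

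Other genes of astrocytes were read beside the markers. Of 9 genes of endfeet and ion transport, 2 rose with FLX in WT mice, among them *Kcnj10*, the inward rectifier potassium channel gene, by 1.23 ± 0.21 (65.0 to 153 TPM; limma, adjusted *p* = 0.0251). Of all genes 0.335% were called in this comparison and 16.8% had an unadjusted *p* under 0.05. The share called was 0% with the replicate block described in the closing section, so each call in this paragraph was lost there. Leaving out a library moved it from 0.00429% (without WT FLX replicate 7) to 4.11% (without WT vehicle replicate 1). The median difference of the 9 genes was 0.44, close to the 0.45 of the 10 markers. Of 27 further astrocyte-enriched genes 5 rose and none fell, led by the neurotensin receptor gene *Ntsr2* (0.63, limma, adjusted *p* = 0.0202), *F3*, which encodes tissue factor (0.62, adjusted *p* = 0.0251), and *Acsbg1*, a fatty acid activating enzyme gene (0.56, adjusted *p* = 0.0154). Of the 27, 15 had an unadjusted *p* under 0.05 and a higher mean, and 3 a lower. Of 24 genes induced in reactive astrocytes 19 passed the filter, 0 were called and 4 had an unadjusted *p* under 0.05 (limma), a share near that of all genes, with a median of 0.16. *Lcn2*, a defining gene of the reactive state, was listed at 0 in 31 of the 48 libraries. The 8 oligodendrocyte genes had a median of 1.16, with 7 at an unadjusted *p* under 0.05 (limma) and 0 called.

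With FLX, several of these genes were lower in *Brd1*+/- than in WT mice, where 1.54% of all genes were called. Without the choroid-rich libraries 0% of all genes were called in this comparison, so that each of the calls that follow was lost. Among the 9 endfoot and transport genes 2 fell, including *Atp1b2*, a sodium pump subunit gene (−0.68, limma, adjusted *p* = 0.0122). Among the 27 astrocyte-enriched genes 3 fell, the GABA transporter gene *Slc6a11* (−1.45, limma, adjusted *p* = 0.0292), the growth factor receptor gene *Fgfr3* (−0.71, adjusted *p* = 0.0284) and *Ntsr2* (−0.53, adjusted *p* = 0.0372). Of 9 other genes of glutamate and glutamine handling 1 fell, *Slc38a1*, a glutamine carrier gene (−0.77, adjusted *p* = 0.0127, limma). Of 14 relatives of the markers, such as other connexin and aldolase genes, 1 fell, *Gjd2*, the connexin 36 gene of neurons (−1.32, limma, adjusted *p* = 0.0122). Of 6 pan-neuronal genes 1 fell, the tubulin gene *Tubb3* (−0.51, limma, adjusted *p* = 0.0328). The other connexin, transporter and neuronal genes on these lists were not called. With vehicle none of these lists held a called gene, although 5 of the 9 endfoot genes and 8 of the 27 astrocyte-enriched genes were higher in *Brd1*+/- mice at an unadjusted *p* under 0.05 (limma). Of all genes 8.52% passed that threshold with vehicle, in either direction.

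The FLX interaction passed the test for 3 of the 9 endfoot and transport genes, among them *Kcnj10* (−1.63, limma, adjusted *p* = 0.0183) and *Atp1b2* (−0.97, adjusted *p* = 0.0162), against 1.71% of all genes. That share was 0.0975% without the striatum-rich and 0.382% without the choroid-rich libraries. Of the 27 astrocyte-enriched genes 8 passed it, 7 with a negative term, and the largest terms were those of *Slc6a11* (−2.38, limma, adjusted *p* = 0.0123), *Gldc*, a glycine cleavage gene (1.59, adjusted *p* = 0.0374), and *Pla2g7*, a lipase gene (−1.17, adjusted *p* = 0.0264). *Agt* passed as well (−3.41, limma, adjusted *p* = 0.0285), as did *Slc38a1* (−0.97, adjusted *p* = 0.0193) and *Gjd2* (−1.49, adjusted *p* = 0.0461). *Slc6a11* averaged 112 TPM in WT vehicle, 203 in *Brd1*+/- vehicle, 294 in WT FLX and 112 in *Brd1*+/- FLX, an order in which WT mice were higher with the drug and *Brd1*+/- mice lower. *Gldc*, which like *Slc1a2* ran the other way, averaged 14.8, 10.8, 7.26 and 14.6 TPM in the same groups. The 8 oligodendrocyte genes had a median term of −2.07, with 8 at an unadjusted *p* under 0.05 (limma) and 0 called.

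**Figure D3:**
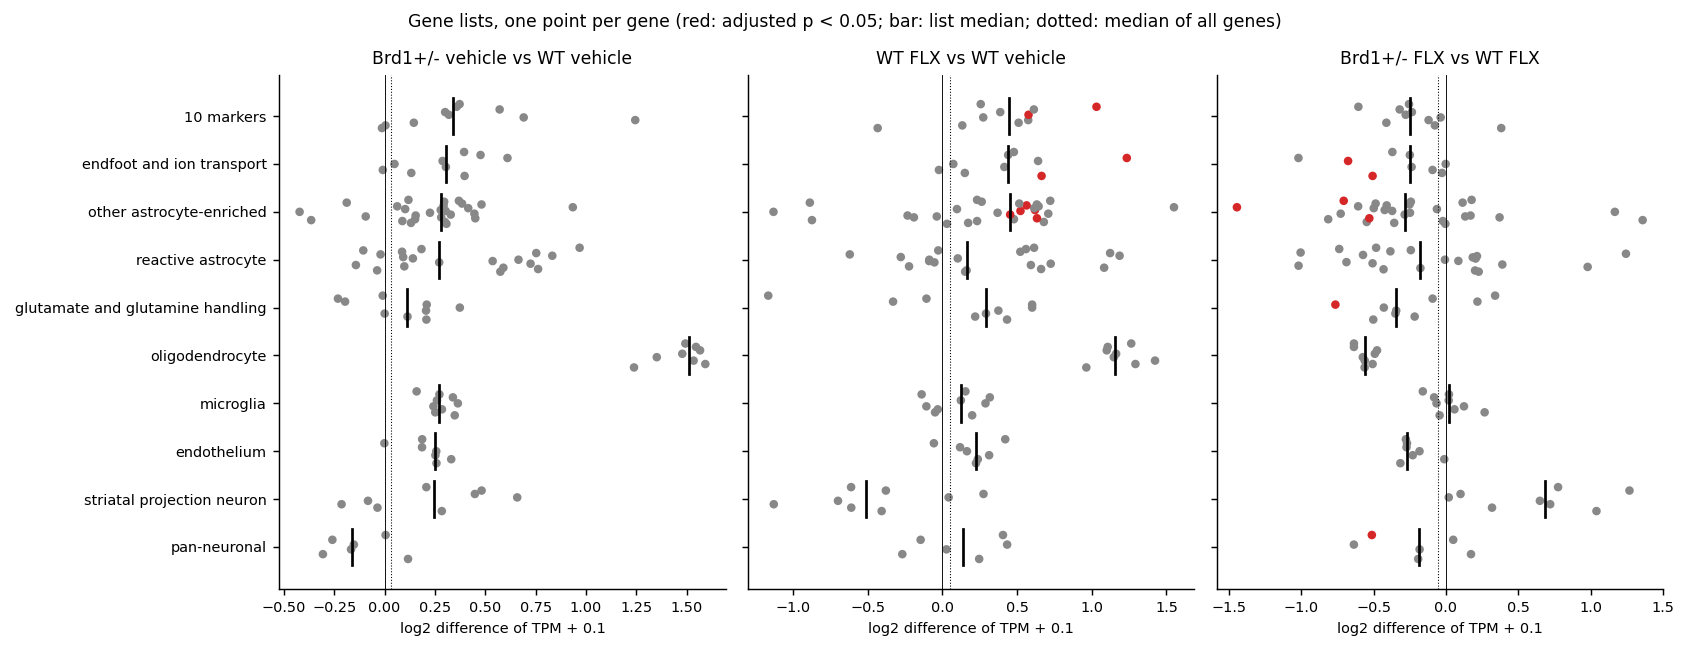
Log2 difference of each gene (points) of 10 gene lists in 3 comparisons, with the median of each list and that of all genes. In WT FLX vs WT vehicle the markers, the endfoot list and the other astrocyte-enriched list centre on 0.45, 0.44 and 0.45, the reactive list on 0.16 and the oligodendrocyte list on 1.16, whereas in *Brd1*+/- FLX vs WT FLX the astrocyte markers centre on −0.25 and the striatal list on 0.69.

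Most of the variation of the markers lay between libraries of the same group, and there the markers moved in an ordered way. After each group was centred on its own mean, 36 of the 45 pairs of markers had a positive Pearson correlation over the 48 libraries, with a median of 0.62 over all pairs. In all 41 pairs passed at an adjusted permutation *p* under 0.05, 33 positive and 8 negative, in a family of 165 relations. The closest pair was *Gfap* and *Aqp4* (*r* = 0.91, rho = 0.88, permutation *p* = 1e-05, the smallest that the permutations can give, adjusted *p* = 4.23e-05), with *r* = 0.89 without the 2 libraries farthest from the median. *Aqp4* and *S100b* (*r* = 0.85, rho = 0.81), *Gfap* and *Gja1* (0.85 and 0.88), *Gja1* and *Gjb6* (0.82 and 0.80) and *Gjb6* and *Aldoc* (0.81 and 0.81) followed. After them came *Aqp4* and *Gja1* (0.77 and 0.82), *Aldh1l1* and *Gjb6* (0.77 and 0.72) and *S100b* and *Glul* (0.76 and 0.75). Each of these pairs had the same permutation *p*. These values pool the 6 groups, and no correlation was computed within a single group.

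*Slc1a2* was the exception. All 9 negative pairs were those of *Slc1a2*, from −0.55 with *Gjb6* (rho = −0.57, adjusted permutation *p* = 0.000261) to −0.29 with *Slc1a3* (rho = −0.32, adjusted permutation *p* = 0.0643). Its relation to *Agt* was stronger still, at *r* = −0.70 (rho = −0.73, adjusted permutation *p* = 4.23e-05), at −0.72 without the 2 farthest libraries and at −0.67 in the 36 libraries below 2000 TPM of striatal markers. With the striatal sum *Slc1a2* correlated at 0.54 (rho = 0.54, adjusted permutation *p* = 0.000319). *Gja1* (*r* = 0.87, rho = 0.85) and *Gjb6* (*r* = 0.86, rho = 0.85) followed *Agt* upward, each at an adjusted permutation *p* of 4.23e-05. The *Agt* level ran from 5.38 to 280 TPM between libraries, and whether it stands for where the punch fell was not tested.

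**Figure D4:**
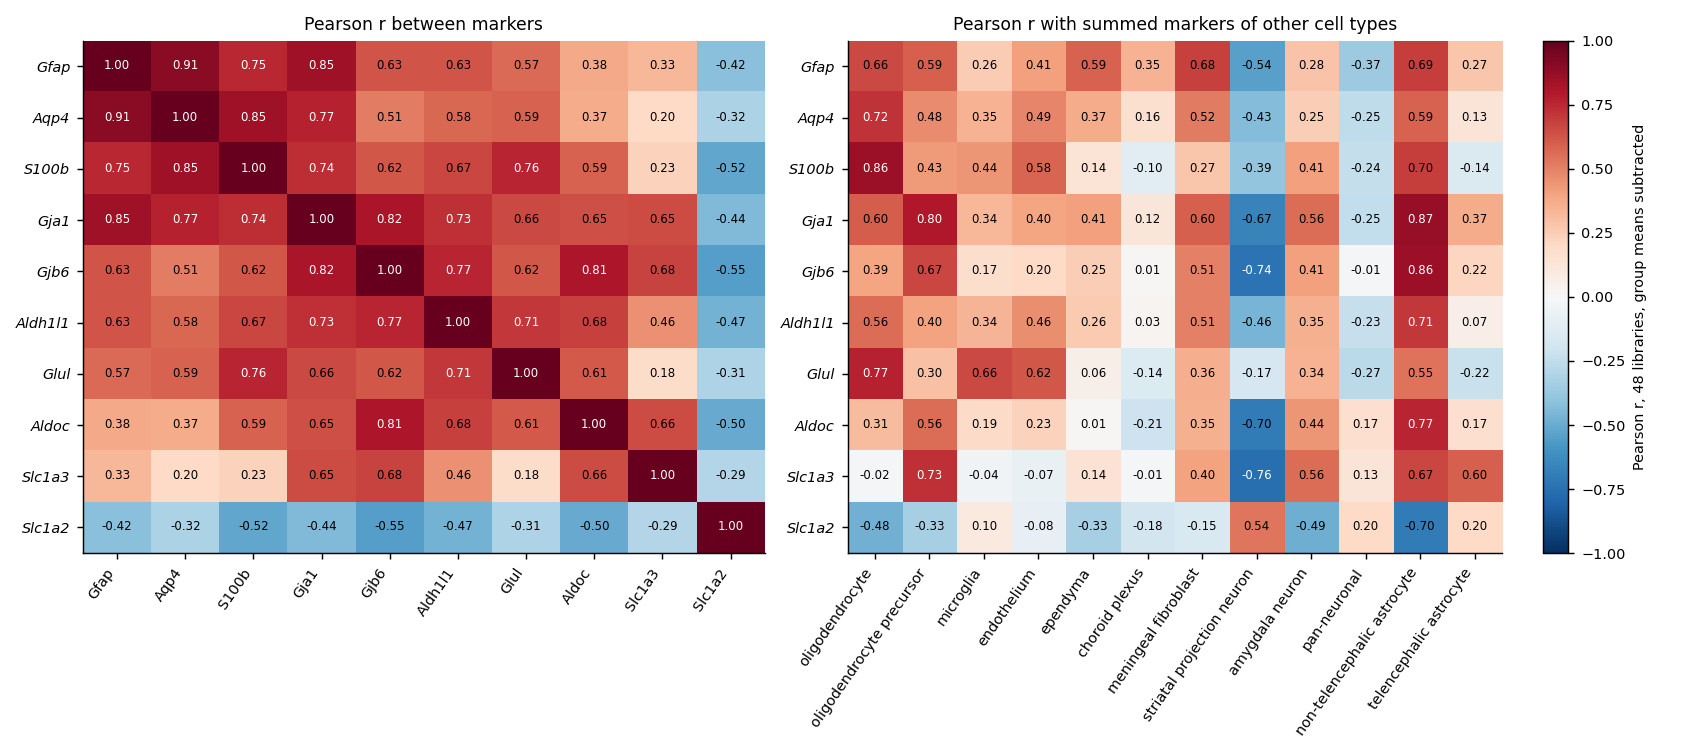
Pearson *r* over 48 libraries, each group centred on its mean, between the 10 astrocyte markers (left) and between each marker and 12 other marker sums (right), from blue (negative) to red (positive). The *Slc1a2* pairs form the only blue band among the markers, and *S100b*, *Glul* and *Aqp4* are red with the oligodendrocyte sum, at 0.86, 0.77 and 0.72.

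The markers also moved with the sums of other cells, without dividing cleanly between them. *S100b* followed the oligodendrocyte sum (*r* = 0.86, rho = 0.87), as did *Glul* (0.77 and 0.79) and *Aqp4* (0.72 and 0.74), each at an adjusted permutation *p* of 4.23e-05. *Slc1a3* did not (*r* = −0.02, rho = 0.04, adjusted permutation *p* = 0.919). It ran opposite to the striatal sum instead (*r* = −0.76, rho = −0.66, adjusted permutation *p* = 4.23e-05), but in the 36 libraries low in striatal markers the relation was only −0.24, so it rested largely on the striatum-rich libraries. *Gjb6* (*r* = −0.74, rho = −0.73) and *Aldoc* (*r* = −0.70, rho = −0.73) were also lower in striatum-rich libraries, and kept −0.48 and −0.53 among the 36. *Gfap* followed the meningeal fibroblast sum (*r* = 0.68, rho = 0.77, adjusted permutation *p* = 4.23e-05) and, more weakly, the ependymal sum (*r* = 0.59, rho = 0.67, adjusted permutation *p* = 0.00019), cells of the brain's outer and ventricular borders. Among the 36 libraries these were 0.52 and 0.19. *Gfap* also followed *Agt* (*r* = 0.69, rho = 0.71, adjusted permutation *p* = 4.23e-05) and the oligodendrocyte sum (*r* = 0.66, rho = 0.62, adjusted permutation *p* = 0.000101), which were 0.53 and 0.68 among the 36. *Gja1* (*r* = 0.60) and *Aldh1l1* (0.56) also followed the oligodendrocyte sum, which *Slc1a2* ran against (−0.48). The oligodendrocyte precursor sum rose with *Gja1* (*r* = 0.80), *Slc1a3* (0.73) and *Gjb6* (0.67) and fell with *Slc1a2* (−0.33). Among the 36 libraries these were 0.49, 0.26, 0.34 and −0.17. *Glul* also followed the microglial (*r* = 0.66) and endothelial (0.62) sums. All TPM values of a library share its scaling, so a very abundant transcript lowers the others together.

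**Figure D5:**
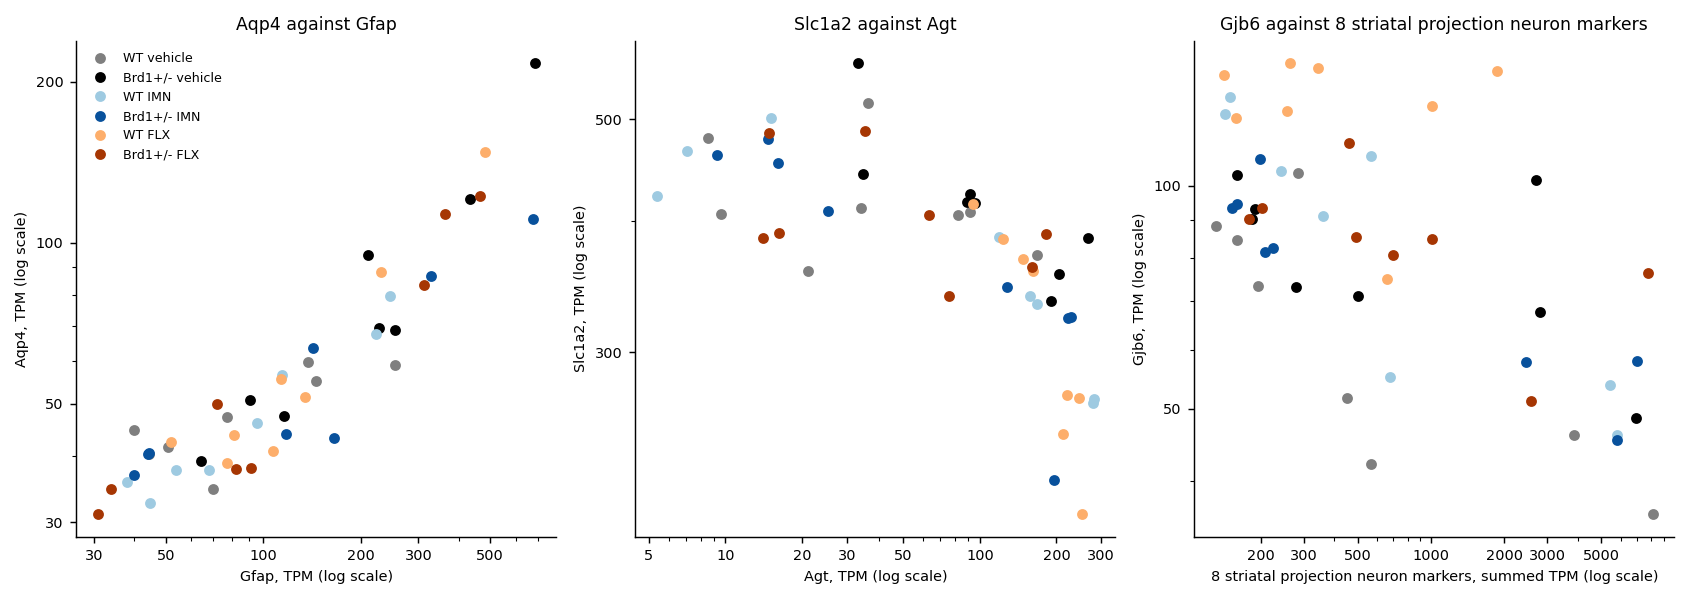
The 3 relations between libraries (1 point each, coloured by group, both axes in TPM on logarithmic scales, with *r* taken after centring each group): *Aqp4* against *Gfap*, *Slc1a2* against *Agt*, and *Gjb6* against the striatal sum. The first rises (*r* = 0.91) and the other two fall (−0.70 and −0.74), with libraries of every group along the *Gfap* range.

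The genes whose pattern was most like that of *Gfap* across the 48 libraries, among 11571 protein-coding genes and by Pearson *r* of group-centred log2 levels, were *Irf2bp2*, *C4b*, *Efnb3* and *Jam3*, each at 0.90, and *Lrrn1* at 0.88. The complement gene *C4b* is induced in reactive glia. For the mean of the 10 markers after each was standardised, the most alike were *Slc14a1* (0.93), the urea transporter gene, *Mlc1* (0.91), which encodes an endfoot membrane protein, *Paqr8* (0.91), *Capn2* (0.90) and *Cldn10* (0.90).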

How the data were processed

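The authors deposited 1 table of TPM values, made with HISAT2 2.1.0 and StringTie 1.3.4 per the labels from single-end amygdala reads, on GRCm38 with an Ensembl annotation. Symbols and gene spans were taken here from GENCODE M21. TPM keeps no read depth, so no counting error is given. Whether the counting used strand is not given in the sources used here. Columns summed to between 999523.6 and 999772.3 TPM, and 52489 of 52636 gene identifiers were found in GENCODE M21 (147 were not).

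Groups came from the labels, with 8 mice each. The members and the gene lists were chosen with earlier results of these data known. Genes of at least 0.1 TPM in at least 8 libraries of a comparison were tested on log2(TPM + 0.1) with limma 3.58.1 (lmFit, eBayes with trend, R 4.3.3), over 16 libraries for each of 9 comparisons and over 32 for each of 2 interactions, with Benjamini-Hochberg adjustment over all genes tested and a threshold of 0.05. On simulated data for WT IMN vs WT vehicle (24517 genes), 153 of 200 changed genes were called, 58 of 93 at 2-fold and 95 of 107 at 4-fold, with 15 false calls. Correlations used group-centred log2 levels and 100000 permutations within groups, 2-sided like the limma tests (scipy 1.17.1, numpy 2.4.6).

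All 10 markers were named, and of each other list the called genes with the largest differences, at most 3 per comparison. A called gene of the endfoot and transport list is counted but not reported by name here. Most alike genes were the 5 with the highest *r*. The lists hold 9 endfoot and transport, 27 astrocyte-enriched, 24 reactive astrocyte, 9 glutamate and glutamine handling, 14 relatives, 8 oligodendrocyte, 8 striatal, 7 choroid plexus, 6 amygdala neuron, 6 pan-neuronal, 9 microglial, 7 endothelial, 5 ependymal and 5 meningeal genes. Pan-neuronal, microglial and endothelial sums averaged between 2738 and 3286, 448 and 570.0, and 145 and 193 TPM by group. Alternatives changed the pseudocount, filter, scaling, trend, samples fitted, a replicate block and an animal code term. That term divides the codes into a low and a high range. Among drug-treated mice the high range holds both genotypes, so the term cannot adjust for the highest codes being those of WT mice. Leaving out striatum-rich or choroid-rich libraries was added after the data were seen.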

Additional observations from a re-analysis of the deposited data

Results flagged for a closer look

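In 7 of 60 groups of 8 libraries examined (10 markers in 6 groups), a single library stood apart from the rest by Dixon's criterion. Chance alone meets it in about 1 of 20 groups where values are normally distributed. Here it was applied to TPM rather than to log2 levels, and the TPM of markers such as *Gfap* were skewed upward. The markers also rose and fell together between libraries, so the 7 flags cannot be read as an excess over that rate. *Gfap* measured 675 TPM in *Brd1*+/- IMN replicate 4 and 483 TPM in WT FLX replicate 6. *Aqp4* measured 217 TPM in *Brd1*+/- vehicle replicate 7 and 148 TPM in WT FLX replicate 6, and *S100b* measured 415 TPM in that same WT FLX library. *Slc1a2* stood high at 565 TPM in *Brd1*+/- vehicle replicate 8. *Gjb6* stood low at 74.8 TPM in WT FLX replicate 8, and without that library its difference between WT FLX and WT vehicle was called.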

How the results depend on the processing

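In the 9 comparisons and 2 interactions no marker other than those of WT FLX vs WT vehicle was called under any alternative that kept all libraries or left out the striatum-rich or choroid-rich ones, and none of the marker differences named in the report changed sign. In WT FLX vs WT vehicle the 2 called markers became 3 with quantile scaling, a filter of 1 TPM or no striatum-rich libraries, 1 with a pseudocount of 0.01, protein-coding scaling or no choroid-rich libraries, and 0 with no filter, median-ratio scaling, no trend, the fit on 48 libraries, the animal code term and the replicate block. The replicate numbers did not pair the samples, since 25 of 120 same-numbered pairs correlated above 0.1 (median −0.024).

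The percentage of all genes called moved as follows, with the cause not tested. For the genotype with vehicle (0.708%) it was 0.85% with no filter, 0.128% with a filter of 1 TPM, 0.371% with quantile scaling, 1.46% on 48 libraries, 0.259% with the replicate block, 0.058% without striatum-rich and 0.312% without choroid-rich libraries. In the same order it was 0.851%, 0.122%, 0.372%, 1.57%, 0.359%, 0.0366% and 0.0801% for *Brd1*+/- IMN vs vehicle (0.776%), and 0.796%, 0.128%, 0.415%, 1.49%, 0.333%, 0.0533% and 0.0882% for *Brd1*+/- FLX vs vehicle (0.731%). For the genotype with IMN (0.017%) it was 0.00887% without choroid-rich libraries. For the genotype with FLX (1.54%) it was 0.669% with no filter, 0.901% with no trend, 0.104% on 48 libraries, 0.195% with the replicate block, 0.533% with the code term, 0.537% without striatum-rich and 0% without choroid-rich libraries. For WT FLX vs WT vehicle (0.335%) the values in that order were 0.152%, 0.115%, 0.0358%, 0%, 0.191%, 5.48% and 1.25%, and 0.685% with a filter of 1 TPM. With that filter, quantile scaling, no striatum-rich and no choroid-rich libraries the interactions gave 0.074%, 0.236%, 0.0792% and 0.328% for IMN (0.536%, and 0.322% with a pseudocount of 0.01), and 1.28%, 1.14%, 0.0975% and 0.382% for FLX (1.71%).

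Leaving out a library gave 0.336% (without *Brd1*+/- vehicle replicate 4) to 1.46% (without WT vehicle replicate 1), 0.0129% to 0.0259%, and 0.299% (without WT FLX replicate 7) to 2.09% (without *Brd1*+/- FLX replicate 6) for the genotype with vehicle, IMN and FLX. It gave 0% to 0.0128% for WT IMN vs WT vehicle, 0.00429% (without WT FLX replicate 7) to 4.11% (without WT vehicle replicate 1) for WT FLX vs WT vehicle, 0.374% to 0.725% and 0.368% to 0.69% for IMN and FLX in *Brd1*+/- mice, 0% to 0.00426% for FLX vs IMN in *Brd1*+/- mice, and 0.424% to 0.569% and 0.932% to 2.62% for the interactions. Markers called were then 0 to 4 in WT FLX vs WT vehicle, 0 to 2 for the genotype with FLX and 0 to 2 for the FLX interaction. *Gjb6* was called without WT vehicle replicate 1 or 7 or WT FLX replicate 8, and *Glul* without WT vehicle replicate 1, 5 or 7 or WT FLX replicate 6 or 8.

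Among the correlations between markers and those with *Agt* and the oligodendrocyte and striatal sums, 7 values changed sign. Among libraries low in striatal markers *Slc1a3* gave −0.056 with *Gfap*, −0.25 with *Aqp4* and −0.027 with *S100b*. With median-ratio scaling it gave −0.0053 with *Aqp4*, and *Glul* gave 0.13 with the striatal sum. *Slc1a3* and the oligodendrocyte sum gave 0.038 by rank and 0.016 without centring. Median-ratio scaling moved the median of all genes in the FLX interaction from −0.10 to −0.02, and the marker terms stand relative to it. TPM values carry no depth, so the precision at low levels is unknown.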
